A study of Mus musculus with 2 samples.

Results

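Elane, Prtn3, Mpo and Ctsg encode the best-known proteins of the primary (azurophil) granules of neutrophils, and the state of chromatin around these 4 of 21755 protein-coding genes was described in mouse cells labelled as megakaryocytes. The genes were chosen by name, with earlier results of these data known, and their regions by position. A region belonged to a gene where it overlapped the gene body or lay within 50 kb of it in the GENCODE M21 annotation of mm10. This gave 62 of 108744 listed peaks in replicate 1 and 58 of 114484 in replicate 2. Overlapping peaks merged into 44 and 42 regions, and 38 regions were shared, that is, found in both replicates, out of 69539 shared regions in the series.

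The assay was ATAC-seq, in which a transposase inserts adapters into accessible DNA. The series held 1 group of 2 biological replicates and no control group. Both were labelled as primary megakaryocytes, the bone marrow cells that shed platelets, of adult male C57BL/6J mice aged 5 to 6 weeks, with 50000 cells per library. The replicates are separate biosamples under a single donor record. No treatment or mutation is given, and sequencers are named for replicate 2 but not for replicate 1. Peak lists were used and no read counts, so the depth is unknown. The absence of a region means that it was not seen at whatever depth that library had. The regions of replicates 1 and 2 had median fold enrichments of 6.65 and 7.01, and 89.3% and 86.2% of them were shared. The value given for a region is read as the authors' fold enrichment, a ratio, with the mean ± SD over n = 2 where both replicates are joined. No header defines it, and the background that it is set against is not stated.

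Primary granules form at the promyelocyte stage of neutrophil development and carry enzymes that kill and digest microbes. Elane (neutrophil elastase), Prtn3 (proteinase 3) and Ctsg (cathepsin G) are serine proteases that cleave bacterial and matrix proteins, while Mpo (myeloperoxidase) makes hypochlorous acid from hydrogen peroxide and chloride. Their transcription in granulocyte precursors is known to depend on PU.1, C/EBP, RUNX1 with CBFB, and MYB.

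The labelled cell type was compared with its markers before the loci were read. A promoter region was a shared region within 500 bp of any annotated transcript start of a gene, and 59.8% of all protein-coding genes had such a region. It was found at 7 of 18 megakaryocyte markers, with summed fold enrichments of 56.6 and 54.8 in replicates 1 and 2. Itga2b (the platelet integrin chain, 13.5 ± 0.584), Nfe2 (a factor of platelet release, 9.89 ± 0.200) and Vwf (von Willebrand factor, 9.39 ± 0.348) had the highest values. At the 5′ end of the GENCODE gene, Itga2b had 6.31, Nfe2 had 9.89 and Vwf had no region. Clec1b, Gp1ba, Gp1bb, Gp5, Gp6 and Gp9 were among 11 markers with no promoter region. All 10 neutrophil markers had a promoter region, with sums of 77.2 and 75.1, led by Mmp8, Ltf and Csf3r, and 5 of the 10 are also in the list of secondary and tertiary granule genes below. So did 6 of 6 markers of granulocyte-monocyte progenitors (sums 56.3 and 50.8) and 8 of 8 of monocytes and macrophages (sums 74.1 and 72.3). The counts were 3 of 7 for mast cells and basophils, 4 of 7 for erythroid cells, 2 of 5 for B cells, 1 of 5 for T and NK cells and 0 of 5 for hepatocytes. These counts go against the label. By any start, 38.9% of the megakaryocyte markers had a promoter region, below the 59.8% of all genes, while every neutrophil, progenitor and monocyte marker listed had one. Counting the 5′ end of the GENCODE gene alone gave 4 of 18 megakaryocyte and 10 of 10 neutrophil markers (54.4% of all genes). It gave 5 of 6 progenitor and 6 of 8 monocyte markers. Csf1r is in both of these last lists. The gene lists were chosen with earlier results of these data known, so the counts are a description. The share of megakaryocytes in the libraries was not measured, and the part that other myeloid cells in the samples had in the values below was not tested. In bulk samples, fewer cells with open chromatin and less opening per cell cannot be told apart.

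The promoters are shown because 3 of the 4 RefSeq starts had no open region over them, although the promoters share short letter strings. Each sequence is the 250 bases before the RefSeq start, read 5′ to 3′ in the direction of the gene (RefSeq, GRCm38.p6). The positions are chr10:79886062-79886311 on the + strand for Elane, chr10:79879417-79879666 on the + strand for Prtn3, chr11:87793534-87793783 on the + strand for Mpo and chr14:56102575-56102824 on the − strand for Ctsg. Capitals mark GAGGAA (core letters of PU.1 sites), AGGAAGT (letters of ETS family sites, which overlap GAGGAA where a G precedes them), and CAACNG and TAACNG (letters of MYB sites), on either strand.
Elane promoter: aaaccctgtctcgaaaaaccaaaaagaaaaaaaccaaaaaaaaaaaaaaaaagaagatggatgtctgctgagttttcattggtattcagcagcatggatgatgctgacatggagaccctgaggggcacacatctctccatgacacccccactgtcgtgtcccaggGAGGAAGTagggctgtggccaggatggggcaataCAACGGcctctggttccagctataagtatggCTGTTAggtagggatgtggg
Prtn3 promoter: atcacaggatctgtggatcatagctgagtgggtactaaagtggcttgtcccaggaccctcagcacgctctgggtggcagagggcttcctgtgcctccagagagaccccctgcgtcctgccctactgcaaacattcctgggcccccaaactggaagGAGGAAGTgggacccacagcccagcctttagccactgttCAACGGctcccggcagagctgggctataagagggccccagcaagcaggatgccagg
Mpo promoter: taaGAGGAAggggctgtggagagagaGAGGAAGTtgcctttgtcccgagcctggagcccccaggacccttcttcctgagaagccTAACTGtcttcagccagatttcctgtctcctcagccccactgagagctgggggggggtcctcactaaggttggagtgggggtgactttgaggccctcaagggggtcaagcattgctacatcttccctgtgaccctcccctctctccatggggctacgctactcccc
Ctsg promoter: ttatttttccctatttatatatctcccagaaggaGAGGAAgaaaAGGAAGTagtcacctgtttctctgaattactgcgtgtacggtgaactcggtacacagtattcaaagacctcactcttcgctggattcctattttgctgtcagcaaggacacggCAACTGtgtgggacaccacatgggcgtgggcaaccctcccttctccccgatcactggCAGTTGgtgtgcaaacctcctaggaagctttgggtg

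GAGGAA occurred in 4 of 4 of these promoters and in 23.3% of 32851 promoters of the same length in the RefSeq table, and AGGAAGT in 4 of 4 and in 7.69%. Elane and Prtn3, which lie next to each other on chromosome 10, have a similar layout. AGGAAGT began 84 bases before the start in Elane and 94 bases before it in Prtn3, and CAACGG began 51 and 56 bases before it. In Mpo the AGGAAGT match began 223 bases before the start and in Ctsg 206 bases before it, so in both it lay farther from the start. CAACNG was present in Prtn3, Elane and Ctsg (29.3% of all promoters) and TAACNG in Elane and Mpo (19.8%). TGTGGT, letters of RUNX sites, was in Ctsg alone (14.0%), and TTGCNNAA, letters of C/EBP sites, was in 0 of 4 (9.56%). The letters were written after these promoter sequences had been seen, and a match is a description of the sequence, not a bound site.

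The distal region of highest fold enrichment in each locus is shown because distal regions, and not the main starts, carried the higher values near Elane and Mpo. The region of Mpo at −3.5 kb is added because it is the nearest intergenic region upstream of that gene, a choice made after its value was seen. Distal means more than 1 kb from any annotated transcript start, and distances are from the RefSeq start to the summit, positive in the direction of transcription. Each sequence is 201 bases centred on the summit, on the + strand of GRCm38.p6. The windows are chr10:79892827-79893027 (Elane +6.6 kb), chr11:87771080-87771280 (Mpo −22.6 kb), chr11:87790221-87790421 (Mpo −3.5 kb) and chr14:56099048-56099248 (Ctsg +3.4 kb). Capitals mark any of 13 searched letter strings on either strand. Beside the 4 above and TTGCNNAA, these are TGTGGT and the form TGCGGT of RUNX sites, AGATAA and the form TGATAA of GATA sites, TGANTCA of AP-1 sites, CAGCTG of E-boxes, and the IRF and CTCF consensus letters.
Elane +6.6 kb: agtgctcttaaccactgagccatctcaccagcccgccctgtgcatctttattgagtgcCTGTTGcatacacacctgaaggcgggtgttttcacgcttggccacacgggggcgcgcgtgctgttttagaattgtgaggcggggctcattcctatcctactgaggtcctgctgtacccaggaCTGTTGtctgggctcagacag
Mpo −22.6 kb: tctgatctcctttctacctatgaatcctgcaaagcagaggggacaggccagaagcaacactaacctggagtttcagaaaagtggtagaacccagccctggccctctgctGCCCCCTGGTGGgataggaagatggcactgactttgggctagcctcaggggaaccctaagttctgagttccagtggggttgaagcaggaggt
Mpo −3.5 kb: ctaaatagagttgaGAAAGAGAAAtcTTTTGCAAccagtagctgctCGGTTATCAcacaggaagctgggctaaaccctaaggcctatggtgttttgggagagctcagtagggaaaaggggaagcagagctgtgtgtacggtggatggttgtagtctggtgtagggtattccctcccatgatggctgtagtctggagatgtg
Ctsg +3.4 kb: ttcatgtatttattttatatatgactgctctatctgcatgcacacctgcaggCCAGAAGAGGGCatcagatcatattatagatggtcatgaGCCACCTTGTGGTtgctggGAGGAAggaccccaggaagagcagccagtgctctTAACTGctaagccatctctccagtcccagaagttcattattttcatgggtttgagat

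The Elane window held CAACNG letters at a pair of places. The Mpo window at −22.6 kb held a match to CTCF letters near its centre, beginning at base 110 of 201. The Mpo window at −3.5 kb held IRF letters at base 15, C/EBP letters at base 27, and MYB and GATA letters that overlap at bases 47 and 50. The Ctsg window held PU.1, RUNX and MYB letters, and CTCF letters at bases 53 and 92. Over all 18 distal regions of the 4 genes, GAGGAA was found in 5 (27.8%), and in 40.2% of the 48720 distal regions of the series. AGGAAGT was found in 1 of 18 (5.56%, series 25.9%), TTGCNNAA in 2 (11.1%, series 15.6%), TGTGGT in 4 (22.2%, series 25.6%), CAACNG in 5 (27.8%, series 29.7%) and TAACNG in 5 (27.8%, series 21.01%). CTCF letters were in 2 (11.1%, series 11.6%), AGATAA in 1 (5.56%, series 9.27%), TGATAA in 2 (11.1%, series 6.71%) and CAGCTG in 2 (11.1%, series 14.0%). TGANTCA was in 2 (11.1%, series 10.7%), TGCGGT in 1 (5.56%, series 4.03%) and IRF letters in 1 (5.56%, series 3.84%). With 18 regions, 1 region is 5.56% of them, so shares that differ by a few regions were not separated.

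The main starts of Elane, Prtn3 and Mpo were not covered by an open region, whereas that of Ctsg was, at a low value. By any annotated start, 3 of 4 members had a promoter region (59.8% of all protein-coding genes). Counting the 5′ end of the GENCODE gene alone left Prtn3 and Ctsg, 2 of 4 (54.4% of genes). Counting the RefSeq start alone left Ctsg, 1 of 4 (59.2% of the 16450 genes with such a start in the table). In the 6 peak lists compared (2 lists of pseudoreplicated peaks, 2 thresholded on the irreproducible discovery rate, IDR, and 2 from pooled samples), no region came within 500 bp of the RefSeq start of Elane, Prtn3 or Mpo. The gap to the nearest region ran from 2184 to 2337 bp for Elane, from 1352 to 2332 bp for Prtn3 and from 1389 to 3323 bp for Mpo.

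Elane (ENSMUSG00000020125.7, chr10:79886247-79888215, + strand) has a single annotated start and no promoter region in either replicate. No shared region overlapped its gene body. The nearest lay intergenic at −2.5 kb, between Prtn3 and Elane, with 6.46 in replicate 1 and 6.36 in replicate 2 (6.41 ± 0.0743). A weaker region at −2.9 kb had 3.46 and 2.81 (3.14 ± 0.461), the weakest mean of the Elane-Prtn3 locus. Thus the stretch between the proteases held a pair of open regions, at fold enrichments below the series median of 7.12 for distal regions. By the authors' −log10 p the region at −2.5 kb ranked higher, above 56.1% of all shared regions, against 37.5% by fold enrichment.

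Prtn3 (ENSMUSG00000057729.12, chr10:79874476-79883174, + strand) has 6 annotated starts, of which 2 had a shared region. The region at its GENCODE 5′ end had 2.73 in replicate 1 and 3.57 in replicate 2 (3.15 ± 0.590) and lies also at the start of Plppr3 on the other strand, so it cannot be assigned to either gene. The region at +2.5 kb, at an internal start (chr10:79881974-79882289), had 4.55 and 4.86 (4.70 ± 0.224). That value was the highest at a Prtn3 start, and 3.39% of genes with a promoter region had a lower one. Nearest to the RefSeq start was an intronic region at −1.7 kb with 6.45 and 6.98 (6.71 ± 0.374), next to a weaker one at −2.3 kb with 3.71 and 3.88. Of the 4 shared regions in the gene body, the one at −1.7 kb was the highest in both replicates, and it exceeded 41.2% of all shared regions by fold enrichment and 65.0% by −log10 p.

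Mpo (ENSMUSG00000009350.13, chr11:87793581-87804413, + strand) also has 6 annotated starts. Its promoter region, chr11:87802506-87802936 at +9.0 kb, lies within 500 bp of the 2 most downstream starts, in an intron near the end of the gene. It had 7.78 in replicate 1 and 6.81 in replicate 2 (7.30 ± 0.683), and 15.5% of genes with a promoter region had a lower value. The only other shared region in the body, at +2.4 kb, was the weakest of all 38, with 2.89 and 2.48 (2.69 ± 0.289). It lies in an exon of the overlapping gene Gm11505. Replicate 1 alone had a region at +1.53 kb, over an internal start (4.52), and another at +3.61 kb (5.33), and both were in the pooled list of replicated peaks.

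Ctsg (ENSMUSG00000040314.2, chr14:56099881-56102574, − strand) had a region over its RefSeq start, chr14:56102332-56102715, with 3.44 in replicate 1 and 3.94 in replicate 2 (3.69 ± 0.359). Of genes with a promoter region, 0.692% had a lower value, and 0.842% where RefSeq starts alone were counted. The authors' −log10 p of this region was 6.48 and 9.22. The pooled list of replicated peaks held it at 3.86, whereas in the conservative IDR list the nearest region was 2930 bp away. In the IDR lists of replicates 1 and 2 the nearest was 159597 and 175334 bp away. The open start of Ctsg was therefore present in the lenient lists and not in the strict ones.

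In order of the strongest value at any start, Mpo (7.30 ± 0.683) was followed by Prtn3 (4.70 ± 0.224) and Ctsg (3.69 ± 0.359), with none for Elane. The values of the 2 replicates did not overlap between neighbours in this order, but with n = 2 no test was made. The order depends on the starts counted, since the values of Mpo and Prtn3 are at internal starts. Mpo and Prtn3 have 6 starts each, Ctsg 2 and Elane 1. At the GENCODE 5′ end alone, Ctsg had 3.69, Prtn3 had 3.15, and Mpo and Elane had none. At the RefSeq start Ctsg alone had a region. All 3 values by any start were below the lower quartile of 8.66 over the 13004 genes with a promoter region, whose median was 11.5. The sum over the members was 15.8 in replicate 1 and 15.6 in replicate 2.

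**Figure D1:**
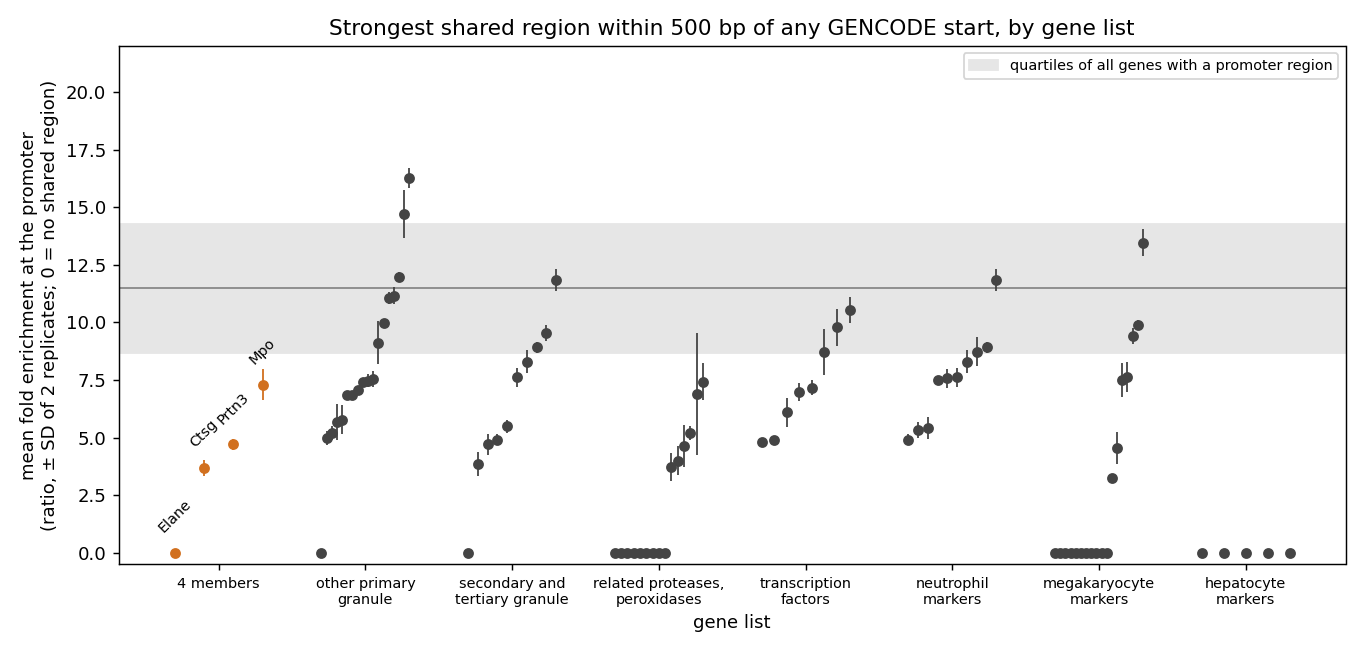
Mean fold enrichment (ratio, ± SD of 2 replicates) of the strongest shared region within 500 bp of any GENCODE start, a point per gene, with 0 where there was none; the grey band spans the quartiles of all genes with a promoter region (8.66 to 14.3) and its line is the median (11.5). The 4 members lie at 0, 3.69, 4.70 and 7.30, below the band, while 17 of 18 other primary granule genes have a region.

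The surroundings of Elane, Prtn3 and Mpo were rich in open regions and those of Ctsg were not. Elane had 18 regions in replicate 1, 20 in replicate 2 and 18 shared, more than 94.3% of protein-coding genes. Prtn3 had 20, 19 and 17 (more than 92.8% of genes), and Mpo 17, 17 and 15 (more than 88.3%). Ctsg had 5, 4 and 4 (more than 30.0%). The median over all genes was 7 shared regions, with quartiles of 3 and 11. The windows of Elane and Prtn3 overlap and hold mostly the same regions, so their counts are not independent. Listed regions covered 8.14% and 8.68% of the Elane window in replicates 1 and 2, 7.92% and 7.58% of the Prtn3 window, 6.80% and 6.60% of the Mpo window and 1.67% and 1.604% of the Ctsg window. Over all chromosomes used, the covered share was 1.34% and 1.47%, so the Ctsg window was close to the genome and the others were above it.

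The distal regions were counted on their own. Elane had 10 distal shared regions (more than 89.4% of genes), Prtn3 9 (more than 86.2%), Mpo 5 (more than 61.8%) and Ctsg 2 (more than 31.3%). The median gene had 3, and 47.3% of genes had at least 4, as did 3 of the 4 members. The order of Elane, Prtn3 and Mpo turned with the settings. With distal set at more than 2 kb from a start, Mpo had 5, Elane 4, Prtn3 3 and Ctsg 2. The IDR lists gave 4 each for Elane, Prtn3 and Mpo and 0 for Ctsg, and the pooled list of replicated peaks gave Prtn3 15, Elane 13, Mpo 8 and Ctsg 3. Scaled to the length of the window, the shared regions came to 17.7 per 100 kb for Elane, 15.6 for Prtn3, 13.5 for Mpo and 3.90 for Ctsg, with a median of 4.93 over all genes.

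**Figure D2:**
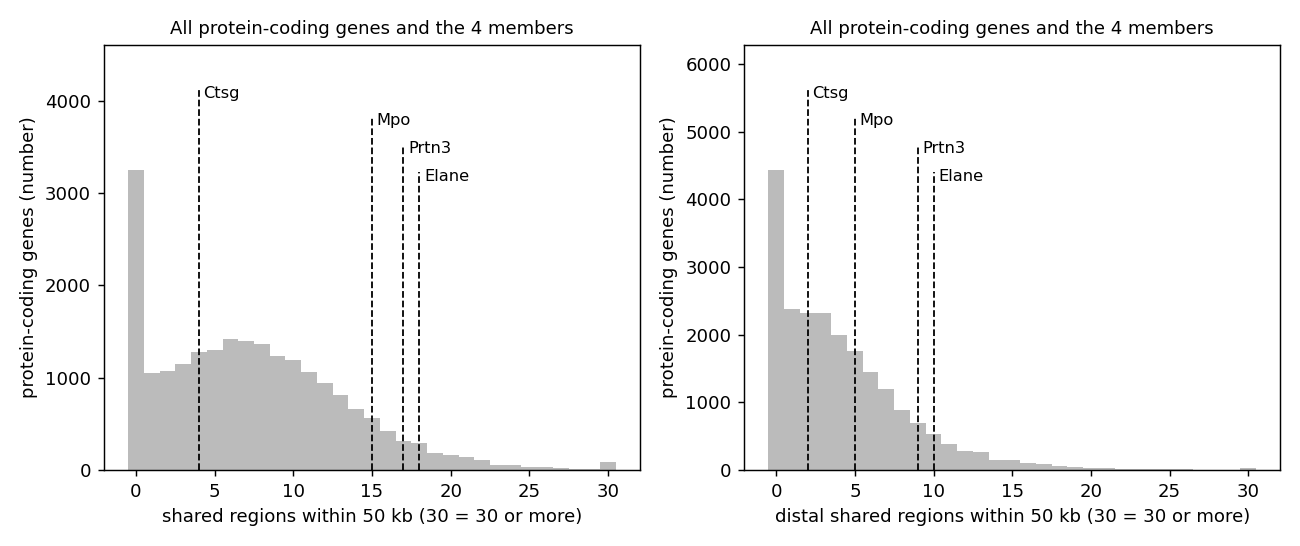
Number of protein-coding genes (y axis) with each count of shared regions (left) and distal shared regions (right) within 50 kb of the gene body. Dashed lines mark Ctsg (4 and 2), Mpo (15 and 5), Prtn3 (17 and 9) and Elane (18 and 10); Ctsg lies on the low side of the median (7 and 3) and the others on the high side.

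The Elane-Prtn3 locus held 19 shared regions, 11 of them distal. The highest distal value in all 3 loci was at +6.6 kb from Elane (chr10:79892778-79893148), intergenic and just past the end of Cfd, with 13.3 in replicate 1 and 13.0 in replicate 2 (13.2 ± 0.280). It exceeded 92.2% of distal regions in the series and is the region whose sequence is shown above. The highest value of the locus was at the start of Med16, a Mediator subunit gene, at +22.3 kb, with 15.1 and 14.7 (14.9 ± 0.297). The shared start of Kiss1r (the kisspeptin receptor) and R3hdm4 at +30.6 kb followed with 10.1 and 10.7 (10.4 ± 0.394). The start of Ptbp1 (a splicing regulator), at −25.3 kb from Prtn3, had 10.6 and 9.87. The strongest regions of the locus thus lay at neighbouring genes or between genes, and those inside Prtn3 were lower.

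Toward its edges, the locus had an intergenic region at −44.7 kb from Prtn3 with 9.24 and 9.21 and an intronic one of Arid3a (an ARID family transcription factor) at +51.0 kb from Elane with 9.94 and 10.4. The start of Arid3a at +40.6 kb had 7.77 and 6.93. The remaining 6 regions, at −38.7 and −13.4 kb from Prtn3 and at +29.1, +39.2, +42.3 and +48.3 kb from Elane, had mean values from 3.68 to 5.79. Of the 9 other protein-coding genes within 50 kb, 6 had a promoter region (59.8% of all protein-coding genes) and Misp, Cfd and Gm26602 had none. Cfd encodes complement factor D, a serine protease related to the members, and like Elane it had no open start.

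The Mpo locus held 15 shared regions, 5 of them distal. Its highest value was at the start of Mks1, a gene of the ciliary transition zone, at +59.4 kb, with 16.3 in replicate 1 and 17.8 in replicate 2 (17.1 ± 1.05). An intronic region of Tspoap1 at −22.6 kb, the one whose sequence holds CTCF letters, had 11.1 and 11.5 (11.3 ± 0.279) and exceeded 84.8% of distal regions. An intergenic region at −3.5 kb (chr11:87790068-87790463), upstream of the Mpo start, had 10.4 and 11.3 (10.9 ± 0.581) and exceeded 82.4%. It was in both IDR lists and in the conservative list, so the sequence just upstream of Mpo was open by every list while the start itself was in none.

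Downstream, 3 regions lay in Lpo, which encodes lactoperoxidase, a peroxidase related to Mpo. They had 8.10 and 8.29 at +14.6 kb, 5.63 and 6.55 at +17.9 kb, and 7.997 and 6.86 at +23.4 kb, the last at an internal start of Lpo. Upstream, the host transcript and precursor of miR-142, a microRNA of blood cells, had regions of lower fold enrichment. Values there were 4.67 and 4.45 at the start of Mir142hg (−38.3 kb) and 3.29 and 3.44 over Mir142 (−37.1 kb), with 2.88 and 3.12 at −39.0 kb beside them. An intergenic region at −34.0 kb, within 1 kb but not 500 bp of a start of Tspoap1, had 2.72 and 2.78. By −log10 p all of these regions ranked higher. The region at −38.3 kb was above 77.3% of all shared regions, against 13.0% by fold enrichment. The shares at −37.1, −39.0 and −34.0 kb were 53.2%, 41.3% and 32.9%, against 2.06%, 0.728% and 0.299%. The others were intergenic at −44.2 kb (6.67 and 7.01) and at internal starts of Tspoap1 at −15.2 kb (7.04 and 6.65) and −14.2 kb (5.45 and 5.99). The one at −44.2 kb was above 88.0% of all shared regions by −log10 p, against 42.6% by fold enrichment. Those in Tspoap1 moved little, to 40.8% and 27.9% from 42.8% and 28.5%. All 4 neighbouring protein-coding genes had a promoter region (59.8% of all protein-coding genes), although those of Tspoap1 and Lpo were not at the 5′ end of the gene.

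The Ctsg locus held 4 shared regions, and all were low. The highest was intergenic at +3.4 kb, past the end of the gene, with 5.60 in replicate 1 and 6.14 in replicate 2 (5.87 ± 0.383). An intergenic region at −3.1 kb had 4.45 and 4.84 (4.65 ± 0.279), and the start of Mcpt8, a basophil protease gene, at +17.4 kb had 4.15 and 3.29 (3.72 ± 0.604). None of the 4 was in the IDR lists of both replicates, against 11 of 19 in the Elane-Prtn3 locus and 8 of 15 in the Mpo locus. Ctsg sits in a cluster of mast cell protease and granzyme genes. Of its 4 protein-coding neighbours, Mcpt8 alone had a promoter region (59.8% of all protein-coding genes), while Mcpt4, Gzme and Gzmd had none.

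**Figure D3:**
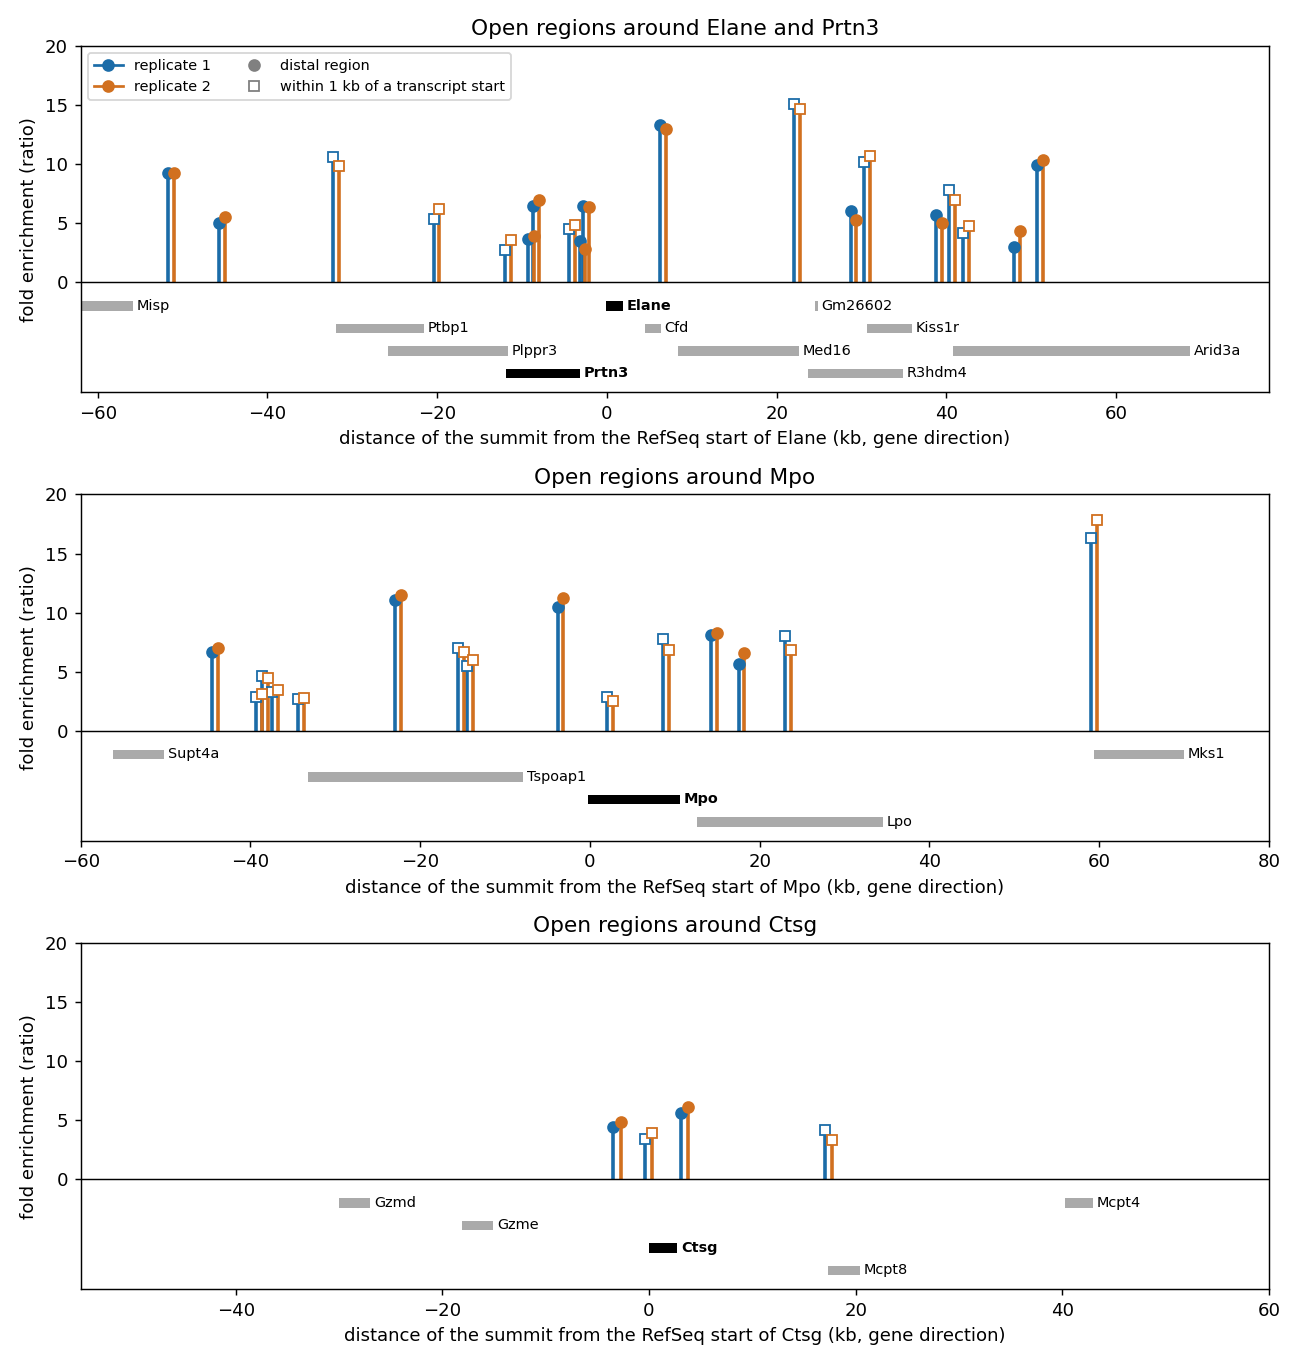
Fold enrichment (ratio) of each shared region in replicates 1 and 2, by distance of its summit from the RefSeq start of Elane, Mpo or Ctsg (kb, in the direction of the gene), with gene bodies below; filled circles are distal regions and open squares lie within 1 kb of a transcript start. The highest regions lie at Med16 (15.1 and 14.7) and Mks1 (16.3 and 17.8), Elane has no region over its body, and no Ctsg region exceeds 6.14.

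The replicates gave like values at these loci. All 38 shared regions differed by less than 1.5-fold between replicates, with log2 ratios of replicate 2 over replicate 1 from −0.33 to 0.52. The log2 ratio was above 0 in 23 regions and below 0 in 15. Its median was 0.0635 at these loci and 0.0472 in the series. The widest difference was at +48.3 kb from Elane, with 3.03 in replicate 1 and 4.33 in replicate 2. Over the whole series the SD of this log2 ratio was 0.24, with quartiles of −0.0825 and 0.214. The share of all shared regions that differed by less than 1.5-fold was not counted. The summits of the replicates were a median of 8 bp apart, both at these loci and in the series.

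Regions found in a single replicate were 6 of 44 in replicate 1 and 2 of 42 in replicate 2. The other 40 regions of replicate 2 made up the 38 shared ones, since those at +42.3 kb from Elane and −44.2 kb from Mpo each joined more than 1 of them. Beside the 2 in Mpo given above, replicate 1 had 3 clustered near −47.1 kb from Prtn3 (4.04, 3.89 and 4.60) and 1 in the Ctsg intron at +1.68 kb (3.22). Replicate 2 had 1 near Med16 at +23.1 kb from Elane (2.65) and 1 at −42.0 kb from Mpo (2.36). All were below the median of their replicate, and all but that near Med16 were in the pooled list of replicated peaks.

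**Figure D4:**
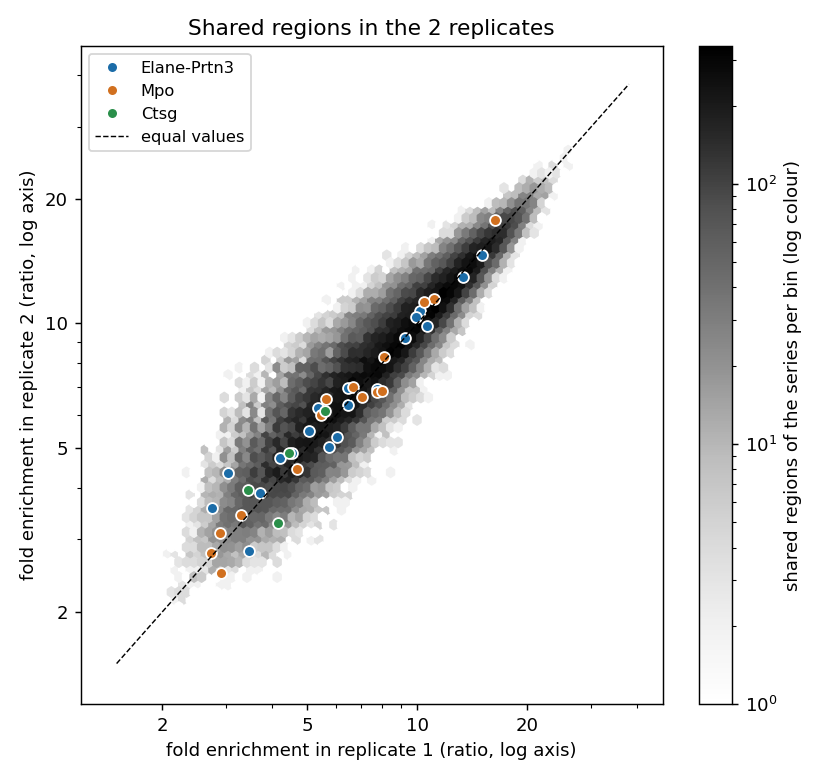
Fold enrichment of shared regions in replicate 1 (x) and replicate 2 (y), both as ratios on log axes; coloured points are the 38 regions of the Elane-Prtn3, Mpo and Ctsg loci, grey hexagons count all shared regions of the series, and the dashed line marks equal values. The coloured points follow the line, with log2 ratios from −0.33 to 0.52.

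By fold enrichment, the 38 regions as a group were not among the strong ones of the series. No summary of the group by −log10 p was made. Their median fold enrichment was 5.83, against 7.52 over all shared regions. The median was 6.25 for their 18 distal regions (series 7.12) and 5.21 for the 20 within 1 kb of a start (series 8.92). Of the distal regions, 7 lay in introns, 1 in an exon and 10 between genes. The median width was 446.5 bp, against 462 bp in the series. The conservative list held 32 of the 38 (84.2%, series 83.0%), and both IDR lists held 19 (50%, series 53.3%). These shares differ from those of the series by less than 2 regions.

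Other genes of the same granules were read beside the 59.8% of all protein-coding genes with a promoter region. Of 18 other primary granule genes, 17 had one (94.4%), with a median of 7.47 among them. Among the high values were those of Gaa (lysosomal acid glucosidase, 16.3 ± 0.416) and Bpi (bactericidal/permeability-increasing protein, 12.0 ± 0.211), and Plac8 had none. Prss57, a serine protease of the same granules, had 5.40 in replicate 1 and 4.98 in replicate 2 (5.19 ± 0.299), away from its 5′ end. Of 10 secondary and tertiary granule genes 9 had a promoter region (90.0%, median 7.63), led by Mmp8 (neutrophil collagenase, 11.8 ± 0.482), Hp (haptoglobin, 9.53 ± 0.354) and Ltf (lactoferrin, 8.91 ± 0.217), and Chil3 had none.

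The listed transcription factors of granule genes had promoter regions of their own. All 8 had one by any start (59.8% of all genes), with a median of 7.08. The highest values were at Cbfb (10.6 ± 0.568), Spi1, which encodes PU.1 (9.79 ± 0.814), and Cebpa (8.70 ± 1.00). All 8 also had one at the 5′ end of the GENCODE gene (54.4% of all genes), where Spi1 was lower, at 7.78. Runx1 had 30 distal regions within 50 kb, Cux1 23 and Cebpa 16, but Runx1 and Cux1 are long genes. Per 100 kb of window, Cebpa had 15.6, Runx1 9.24 and Cux1 5.48. Of 15 related proteases and peroxidases, 6 had a promoter region (40%, against 59.8% of all genes), and 4 at the GENCODE 5′ end (54.4% of all genes). The median of the 6 was 4.91, the highest being Lpo (7.43 ± 0.806), Gzmb (granzyme B, 6.91 ± 2.65) and Prss57. The value of Gzmb rests on replicates that differ widely, with 5.04 in replicate 1 and 8.78 in replicate 2. Of the 9 related genes with none, Cfd, Cma1, Gzma, Gzmc, Gzmk and Gzmm come first in alphabetical order. The members, with 3 of 4 by any start and 1 of 4 by RefSeq start, are too few to be told from any of these shares.

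Genes most like each member were found over 4 values per gene, the fold enrichment at the promoter and the number of regions within 50 kb in each replicate, scaled by their SD over all genes. Slamf7, Thbs3 and Ahnak2 had the same values as Elane (0 at the promoter and 18 and 20 regions, distance 0). Nearest to Prtn3 were Egr3 (distance 0.0413), Mcemp1 (0.0834) and Fcor (0.144). Nearest to Mpo were Pbx2 (0.0330), Pgls (0.0519) and Clint1 (0.0596), and nearest to Ctsg were Prr5 (0.118), Npy4r (0.139) and Npnt (0.162). Because genes within 200 kb of a member were left out, Elane and Prtn3 could not be listed for each other. No other pair of members was among the nearest, and likeness over 2 samples is a description of these values.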

How the data were processed

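ATAC-seq peak lists of 2 replicates (1 group) were analysed, grouped by the sample labels. Per the labels, the authors called peaks on mm10. The caller, the aligner and their versions are not given in the sources used here. The deposited lists give for each peak a fold enrichment, a ratio, and a −log10 p-value and −log10 q-value, read by the peak format since no header defines them. No scaling between samples is stated. No column of values was left unmapped (0).

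Python 3.11.15, pandas 2.3.3 and numpy 2.4.6 were used. Overlapping peaks of a list were merged, keeping the highest fold enrichment and its summit, on chromosomes 1 to 19 and X. Shared regions overlapped by at least 1 bp between replicates. Genes and starts came from GENCODE M21, and promoter sequences from RefSeq GRCm38.p6. Merging, overlap and motif search were tested on simulated data. No test was run, since there is no comparison group. SDs over n = 2 measure the spread between these samples.

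The members and gene lists were chosen with earlier results of these data known, and the motif letters after the promoters had been seen. Named were the members, neighbours with an open start or of related families, the 3 highest regions per locus, the nearest and weakest ones and those of a single replicate, and per list the 3 highest genes and the first 6 with none. A gene that this rule would name is not reported here. Genes within 200 kb of a member were left out of the likeness search. Alternatives were other peak lists, a 4-fold minimum, 50% reciprocal overlap, summits within 100 bp, other windows, other starts and each replicate alone.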

Additional observations from a re-analysis of the deposited data

How the results depend on the processing

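Counts near the members moved with the list, the window and the definition of distal. The 38 shared regions became 19 with the IDR lists, 21 within 20 kb and 61 within 100 kb. The 18 distal ones became 9 with the IDR lists, 28 with the pooled list of replicated peaks, 10 within 20 kb and 29 within 100 kb. With distal set at more than 2 kb from a start there were 12, and those near Elane fell to 4, against 10, and those near Prtn3 to 3, against 9. The 3 members with a promoter region became 1 with the RefSeq start alone (an alternative added after seeing the data) and 2 with the IDR lists, the conservative list, a 4-fold minimum or the GENCODE 5′ end alone. Elane had none under any of these settings. The median fold enrichment of 5.83 became 6.51 in the pooled list and 8.19 in the IDR lists. The 5 distal regions with GAGGAA became 3 within 50 bp of the summit, and 1 with AGGAAGT as the letters, which was added. Without either replicate, the counts were 42 to 44 regions, 21 to 22 distal ones and 3 members, and the median was 5.68 to 6.19. Of the values that answer a comparison, 12 moved beyond the limits set and 54 kept within them. Those 54 include the changes to 2 members, the 12 distal regions at more than 2 kb and the values without either replicate. Ctsg had the fewest shared regions under each setting named here, but the order of the others turned: the pooled list gave Prtn3 24, Mpo 23 and Elane 22, the conservative list Mpo 16 and the others 15 each, and replicate 1 alone Prtn3 20, Elane 18 and Mpo 17. Scaling by window length kept the order. Ranking by −log10 p moved regions above the series median, among them those at −2.5 kb from Elane, −1.7 kb from Prtn3 and −38.3 kb from Mpo. The cause of these changes was not tested. No paired analysis was possible because the series has 1 group. Depth is unknown, so weak regions missing from a list may lie below detection.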
